A study of Mus musculus with 2 samples.

Results

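The genes Acta2, Tagln, Il6, Lif, Cxcl12, Pdgfra, Pdgfrb, Fap, Thy1 and Postn, which are widely used to describe contractile and inflammatory fibroblasts, were followed in 2 mouse pancreatic tumours. The genes were taken by their symbols, and all 10 were found among the 32285 genes of the files. They were measured in fibroblasts, defined here as cells in which Col1a1, Col1a2 and Col3a1 together gave at least 1% of the unique molecular identifiers (UMIs, each a counted RNA molecule), and in the other cell classes of the same tumours. This gate took 678 of 23507 kept cells. The gate used the 3 collagens and none of the 10 genes. Just below it, at 0.5 to 1% collagen, 63 and 42 cells held Acta2 at 290.4 and 445 CPM (UMIs of the gene per 1000000 UMIs) and Il6 at 246 and 411 CPM. Just above it, at 1 to 2%, 93 and 99 cells held Acta2 at 372 and 603 CPM and Il6 at 456 and 614 CPM, for the libraries in the order given below.

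The tumours were orthotopic allografts in the mouse pancreas. KPC cells are a mouse pancreatic cancer line, and they had been made into stable lines by lentiviral transfer of a control hairpin, named KPC-shV, or of one directed at Zeb1, named KPC-shZEB1. From each line 1 tumour was dissociated and its cells were sequenced from the 3' end of their RNA on the 10x Chromium platform. The study's text describes gemcitabine treatment of the mice used for single-cell sequencing, which the sample labels do not mention. The hairpins were delivered to the KPC cells and not to the host, whose fibroblasts form the stroma of such grafts. A KPC cell with high collagen RNA would pass the same gate, and no label separates it from a host cell. With 1 library per group, mouse, tumour, dissociation, library and hairpin cannot be told apart, no test was possible, and every interval in parentheses is an exact 95% interval for counting error only. Values are given for the library labelled KPC-shV first and the library labelled KPC-shZEB1 second, and a ratio is the second over the first.

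In pancreatic cancer the fibroblasts around the tumour cells are known to take different states. Myofibroblast-like cells near the tumour carry contractile proteins such as alpha smooth muscle actin and respond to TGF-beta, while inflammatory fibroblasts secrete cytokines and chemokines such as IL-6, LIF and CXCL12 and respond to IL-1 and to JAK-STAT signalling. A further, antigen-presenting state carries MHC class II genes. PDGF receptors, FAP, THY1 and periostin are used to recognise fibroblasts of several states, and pericytes and smooth muscle cells share the contractile genes.

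After filtering, the libraries held 11394 and 12113 cells with medians of 3721 and 4254 UMIs. The gate took 317 cells (2.78%, 2.49–3.10) and 361 cells (2.98%, 2.68–3.30), with medians of 29139 and 28302 UMIs, so that the depth behind each fibroblast value was close in both libraries. Of the gated cells, 650 lay in 1 cluster that was fibroblast-like by its markers, and all 7 fibroblast markers (Dcn, Lum, Col1a1, Col1a2, Col3a1, Pdpn, Dpt) were detected in both libraries. The 28 others were 24 cells in a tumour-like cluster, with a median depth of 1359 and 1512 UMIs, and 4 in a cluster led by Prg4 and Grem1. Between the libraries 46 barcodes were shared, none of them gated. RNA from other cells was present in the gated cells. Only 6 and 3 of them had no UMI of Epcam, Krt8, Krt18, Krt19 or Ptprc, and the 6 granulocyte markers, all detected in the gated cells, summed to a median of 967 and 458 CPM per cell. Zeb1, the gene targeted by the hairpin, gave 129 and 171 CPM for tumour-like cells (ratio 1.33, 1.26–1.39) and 244 and 271 CPM for gated fibroblasts (ratio 1.11, 1.05–1.18). In tumour-like cells, the class that should hold the KPC cells, the targeted gene went against the label. The ratio was also above 1 in the cluster led by Prg4 and Grem1 (1.22, 1.15–1.30). That cluster took no cell type name, and whether it holds KPC cells, for which the label predicts less Zeb1, was not tested. In granulocyte-like cells the ratio was 1.49 (1.42–1.56), and for such host cells the label predicts nothing. Reads from introns would count unspliced Zeb1 RNA, and whether they were counted is not given in the sources used here. Each difference below is one between labelled libraries.

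Positions are those of GRCm38 in the GENCODE M21 annotation, counted from 1. Acta2 (ENSMUSG00000035783) lies on chromosome 19 from 34241090 to 34255590 on the minus strand, and Tagln (ENSMUSG00000032085) on chromosome 9 from 45929619 to 45936058 on the minus strand. Of the secreted factors, Il6 (ENSMUSG00000025746) lies on chromosome 5 from 30013114 to 30019981, Lif (ENSMUSG00000034394) on chromosome 11 from 4257557 to 4272514 and Cxcl12 (ENSMUSG00000061353) on chromosome 6 from 117168535 to 117181367, all on the plus strand. Pdgfra (ENSMUSG00000029231) is at 75152292 to 75198215 of chromosome 5, also on the plus strand, and Pdgfrb has the identifier ENSMUSG00000024620. Fap (ENSMUSG00000000392) lies on chromosome 2 from 62500943 to 62574075 on the minus strand, Thy1 (ENSMUSG00000032011) on chromosome 9 from 44043384 to 44048579 and Postn (ENSMUSG00000027750) on chromosome 3 from 54361109 to 54391037, both on the plus strand. Tagln is overlapped on the opposite strand by Pcsk7 and Gm48529, and Pdgfra by Gm42802 and Gm42803, while Pdgfra also contains Mir7025 on its own strand. The other 8 genes overlap no annotated gene.

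RefSeq start sites (GRCm38.p6) were used for 6 of the 10 genes (Acta2, Il6, Lif, Cxcl12, Pdgfra and Postn), and the 250 bases before each start were searched on both strands for 6 motifs. The window of Lif is printed up to the annotated start of the gene. The windows of Il6, Lif and Postn are printed because they hold the matches that are least common among all promoters. Capitals in Il6 mark an AP-1 motif (TGANTCA), from 249 to 243 bases before the start, and an NF-kB-like motif (GGGANTTTC), 44 to 36 bases before it. Capitals in Lif mark an AP-1 motif 228 to 222 bases before the start, and those in Postn a TATA box (TATAAA) 26 to 21 bases before it.
Il6, chr5:30012864-30013113, plus strand: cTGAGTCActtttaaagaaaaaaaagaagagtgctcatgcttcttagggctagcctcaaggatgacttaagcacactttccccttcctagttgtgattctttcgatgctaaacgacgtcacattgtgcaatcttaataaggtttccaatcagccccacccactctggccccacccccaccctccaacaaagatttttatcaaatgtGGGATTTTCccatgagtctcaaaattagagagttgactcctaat
Lif, chr11:4257318-4257556, plus strand: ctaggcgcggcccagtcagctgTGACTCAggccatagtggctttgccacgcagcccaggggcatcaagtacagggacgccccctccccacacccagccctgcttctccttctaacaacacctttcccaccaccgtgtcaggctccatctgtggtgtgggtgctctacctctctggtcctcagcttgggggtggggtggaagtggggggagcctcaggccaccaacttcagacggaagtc
Postn, chr3:54360857-54361106, plus strand: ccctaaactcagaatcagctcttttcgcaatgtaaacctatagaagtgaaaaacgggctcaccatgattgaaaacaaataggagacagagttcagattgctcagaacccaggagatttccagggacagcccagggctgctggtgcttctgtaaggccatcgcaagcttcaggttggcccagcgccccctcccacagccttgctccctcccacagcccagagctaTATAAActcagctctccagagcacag
Among 32851 RefSeq promoter windows, AP-1 was found in 6.75%, the NF-kB-like motif in 0.941% and TATAAA in 12.4%. The serum response element known as the CArG box was searched only in its strict form (CC, 6 of A or T, GG). This form, present in 1.47% of windows, was in none of the 6. Looser forms were not searched, and Tagln had no window. The lower end of the Acta2 window, 34255374, lies inside the annotated gene, which reaches 34255590. The search therefore does not show that the contractile genes lack the element. The E-box CACCTG, in 17.2% of windows, was found in Lif alone, and CAGAC, in 42.2%, in Acta2, Lif, Pdgfra and the other window of Postn. A match describes the letters of the window and is not evidence of a bound factor.

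The contractile pair was present at nearly the same level in gated fibroblasts of both libraries. Acta2, which encodes alpha smooth muscle actin, was at 372.6 CPM (360–385) and 374.0 CPM (362–386), a ratio of 1.00 (0.959–1.05). Tagln, which encodes the actin-binding protein transgelin, was at 728 CPM (711–745) and 727 CPM (710–743), a ratio of 0.999 (0.966–1.03). The sums hid a very uneven spread over cells. A UMI of Acta2 was found in 66.6% and 67.3% of the cells and one of Tagln in 68.8% and 69.8%, yet the median cell held 48.3 and 49.1 CPM of Acta2 and 75.2 and 63.9 CPM of Tagln. The 10% of cells with the most Acta2 held 73.1% and 69.7% of its UMIs, and for Tagln these shares were 64.0% and 68.2%. The 5 cells with the most Acta2 alone held 28.9% and 23.2%. The contractile signal was thus carried by a minority of the gated cells in each tumour.

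The secreted inflammatory factors differed in direction. Il6, which encodes the cytokine IL-6, was at 645 CPM (629–662) and 689 CPM (673–705), a ratio of 1.07 (1.03–1.11), with a UMI in 85.8% and 91.1% of the cells. Cxcl12, which encodes the chemokine that binds CXCR4, was at 349 CPM (337–361) and 425 CPM (412–438), a ratio of 1.22 (1.16–1.28). Lif, which encodes another cytokine of the IL-6 family, was at 87.5 CPM (81.6–93.7) and 61.7 CPM (57.0–66.7), a ratio of 0.705 (0.635–0.783). The intervals of the levels did not overlap for these 3 genes. For Il6 the 10% of cells with the most UMIs held 28.7% and 26.2% of them, the lowest shares among the 10 members. These shares were 53.7% and 50.2% for Cxcl12 and 55.6% and 59.0% for Lif. By other measures Pdgfra was spread more evenly than Il6, with a UMI in 89.9% and 92.5% of the cells. Its per-cell quartiles were 78.7 to 337 CPM and 111 to 346 CPM, against 92.4 to 1090 CPM and 217 to 1163 CPM for Il6. Lif was found in 51.1% and 46.5% of the cells.

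Among the receptors and surface or matrix proteins, Thy1 and Pdgfrb differed most. Thy1, a glycoprotein anchored to the surface of fibroblasts and T cells, was at 91.8 CPM (85.7–98.1) and 133 CPM (126–140), a ratio of 1.45 (1.33–1.58), and was found in 63.7% and 75.9% of the cells. Pdgfrb, the beta receptor of platelet-derived growth factor, was at 125 CPM (118–133) and 102 CPM (96.0–108), a ratio of 0.815 (0.749–0.886). Both differences were in levels whose intervals did not overlap. The alpha receptor Pdgfra was at 239 and 248 CPM, a ratio of 1.04 (0.979–1.10). Fap, a membrane protease of activated fibroblasts, was at 86.6 and 90.1 CPM, a ratio of 1.04 (0.946–1.14). Postn, which encodes the matrix protein periostin, was at 616 and 624 CPM, a ratio of 1.01 (0.976–1.05). For Pdgfra, Fap and Postn the counting intervals of the ratio included 1.

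No member was past 1.5-fold in either direction. Among the 13397 genes with at least 30 UMIs summed over the gated cells of both libraries, 977 (7.29%) had a ratio of at least 1.5 and 782 (5.84%) a ratio of at most 1/1.5. The 10 members had a median ratio of 1.02, with 7 above 1, beside 0.991 for all of these genes. Thy1 came nearest to the upper limit and Lif nearest to the lower one, and the counting intervals of both reached past it. Under some alternative settings 1 member crossed a limit, with Lif at 0.589 to 0.636, Pdgfrb at 0.598 or Thy1 at 1.56 to 1.599.

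**Figure D1:**
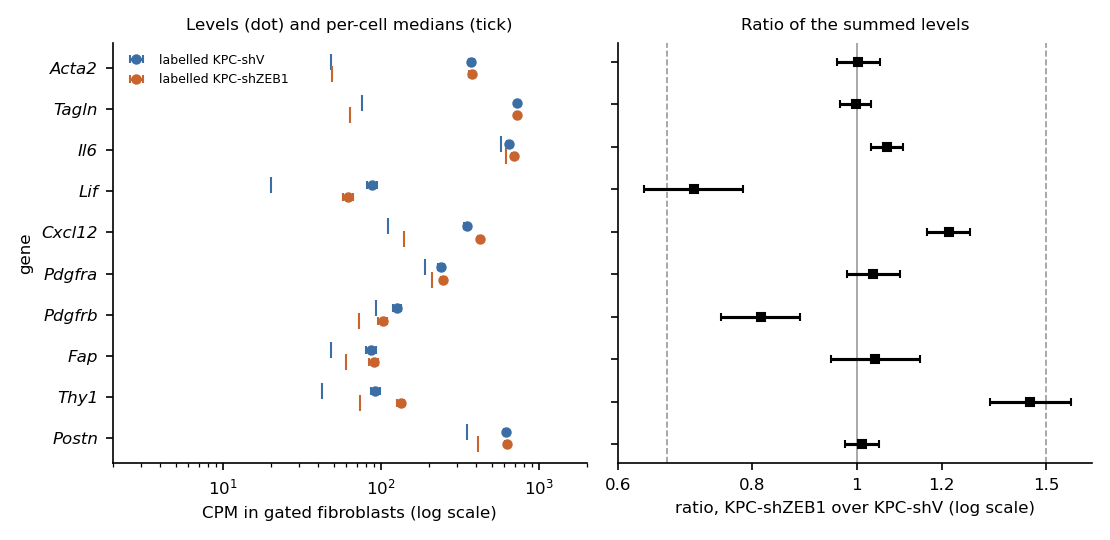
Levels of the 10 genes in gated fibroblasts (left, CPM on a log scale, dots for summed counts with 95% counting intervals, ticks for the median over cells where it is above 0) and the ratio of both libraries, KPC-shZEB1 over KPC-shV as labelled (right, log scale, bars for 95% counting intervals). Thy1 lies highest at 1.45 and Lif lowest at 0.705, and both points lie inside the dashed lines at 1.5-fold while their intervals reach past them.

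Lists of further genes were counted in the same cells. In the contractile and matrix list (20 of 21 genes in the files), 1 gene was past 1.5-fold higher and none lower, and the median ratio was 1.05 with 15 genes above 1. That gene was Lrrc15, a marker of TGF-beta-driven myofibroblasts, at 11.4 and 20.4 CPM (ratio 1.79, 1.41–2.28). The matrix gene Tnc reached 1761 and 2607 CPM (ratio 1.48, 1.45–1.51). Of the other genes of contractile proteins in the list, Cnn1 had a ratio of 1.18 (0.898–1.56), Cnn2 of 1.17 (1.04–1.32), Tpm2 of 1.10 (1.04–1.16), Des of 1.04 (0.884–1.23) and Myl9 of 1.00 (0.881–1.14). Actg2 had a ratio of 0.973 (0.844–1.12), Tpm1 of 0.921 (0.888–0.954) and Mylk of 0.801 (0.737–0.871), so these genes took both directions.

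The inflammatory list (21 genes) had 4 genes past 1.5-fold higher and none lower, with a median ratio of 1.195 and 17 genes above 1. The 4 were Agtr1a, which encodes an angiotensin receptor, at 2.56 and 8.30 CPM (ratio 3.24, 2.04–5.33), the acute-phase gene Saa3 at 1543 and 3567 CPM (ratio 2.31, 2.27–2.36), Clec3b at 70.1 and 148 CPM (ratio 2.12, 1.93–2.32) and the cytokine gene Il33 at 258 and 402 CPM (ratio 1.56, 1.48–1.64). The complement gene C3 followed with a ratio of 1.40 (1.37–1.42). On the other side, the neutrophil chemokine gene Cxcl2 was at 1708 and 1191 CPM (ratio 0.697, 0.681–0.714), close to the ratio of Lif. Granulocyte markers in the gated cells summed to 1300 and 561 CPM. The part of granulocyte RNA in the Cxcl2 values was not tested. Of the 4 members in this list, Cxcl12 lay just above the list's median and Il6, Pdgfra and Lif lay below it.

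The antigen-presenting list (7 genes) had 5 genes past 1.5-fold higher and 1 lower, with a median ratio of 2.38. Its MHC class II genes H2-Ab1 and H2-Aa were at 84.0 and 285 CPM and at 103 and 259 CPM, and the invariant chain gene Cd74 was at 196 and 650 CPM. RNA of immune cells moved with them. The 8 monocyte-macrophage markers, all detected in the gated cells, summed to 206 and 546 CPM over all gated cells, and Cd74 was at 252 and 853 CPM in granulocyte-like cells, which are not expected to make it. The part of such RNA in these ratios was not tested. Slpi, the protease inhibitor in this list, was at 214 and 89.6 CPM (ratio 0.418, 0.386–0.453).

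Ligands and receptors that pair with the members (11 genes) had 1 gene past 1.5-fold in each direction and a median ratio of 0.918. Osm, a cytokine that shares receptor chains with LIF, was at 41.8 and 23.7 CPM (ratio 0.567, 0.481–0.667), but its level in granulocyte-like cells was 668 and 428 CPM. Pdgfb rested on 32 and 69 UMIs (ratio 1.97, 1.28–3.10). Of the IL-6 receptor chains, Il6ra had a ratio of 1.47 (1.24–1.75) and the signal transducer Il6st one of 1.27 (1.198–1.35). The CXCL12 scavenger receptor Ackr3 was at 338 and 310 CPM, a ratio of 0.918 (0.873–0.964). Of 9 TGF-beta and IL-1 inputs only Tgfb3 was past the fold, at 72.1 and 40.1 CPM (ratio 0.556, 0.491–0.630), and the median was 0.869. The contractile regulators (6 genes with enough UMIs of 7 in the files) had none past the fold, with a median of 0.959.

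The 10 genes were not equally bound to fibroblasts. Of all UMIs of Postn in kept cells, 82.8% and 82.2% lay in the gated cells, which held 9.26% and 8.59% of all UMIs. The shares were 78.7% and 72.2% for Cxcl12, 66.6% and 69.5% for Tagln, 60.3% and 67.3% for Pdgfra and 59.8% and 58.2% for Il6. Pdgfrb (45.3% and 46.6%), Thy1 (42.2% and 35.2%) and Acta2 (39.8% and 36.8%) had most of their UMIs elsewhere. Fap (26.4% and 27.2%) and Lif (15.6% and 14.6%) were mainly counted outside the gate. Monocyte-macrophage-like cells held 46.7% and 50.2% of the Lif UMIs, and granulocyte-like cells held 48.3% of the Fap UMIs in the library labelled KPC-shV.

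On the CPM scale, the small pericyte-like class (14 and 10 cells) stood above the gated fibroblasts for the contractile genes. Acta2 was at 2588 CPM (2392–2796) and 2580 CPM (2350–2825) there, Tagln at 2275 and 2025 CPM, Pdgfrb at 667 and 693 CPM and Thy1 at 285 and 372 CPM. Postn, at 760 and 682 CPM, was near its fibroblast level. Pdgfra had 1 and 3 UMIs in pericyte-like cells, against 239 and 248 CPM in gated fibroblasts, and Cxcl12 had 3 UMIs in each library there, against 349 and 425 CPM. These cells formed a cluster of their own and were not in the gate. Inside the gate, the summed level of the 6 pericyte markers, all detected, had a median of 0 per cell and a maximum of 598 and 1650 CPM. The 4 smooth muscle markers, also all detected, include Actg2 and Cnn1 of the contractile and matrix list. Their sum had a median of 0 and a maximum of 1565 and 3256 CPM. The part of such RNA in the Acta2 and Tagln values was not tested.

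Several members had a second source. Lif was at 104 and 55.6 CPM in monocyte-macrophage-like cells (ratio 0.536, 0.506–0.568) and at 45.9 and 29.4 CPM in tumour-like cells (ratio 0.641, 0.582–0.706), so its ratio was below 1 in these classes as in gated fibroblasts. Fap was at 64.8 and 64.5 CPM in granulocyte-like cells, where the fibroblast receptor gene Pdgfra was at 3.81 and 5.36 CPM. Thy1 was at 166 and 190 CPM in T-like cells and at 135 and 164 CPM in NK-like cells. Il6 was at 104 and 79.6 CPM in monocyte-macrophage-like cells, and the 16 mast-like cells counted for KPC-shZEB1 held 2566 CPM (2254–2908). Cxcl12 was at 42.2 and 127 CPM in endothelial-like cells, a ratio of 3.00 (2.39–3.78). For tumour-like cells Acta2 was at 37.0 and 94.97 CPM (ratio 2.57, 2.36–2.79) and at 126 and 210 CPM in a cluster led by Prg4 and Grem1 that took no cell type name (ratio 1.66, 1.55–1.79). The fibroblast-like cells that fell outside the gate (57 and 31 cells) were at 308 and 212 CPM of Acta2 and at 191 and 695 CPM of Cxcl12.

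Shares of cells with a UMI were set against classes that should lack the genes, at equal depth. Each share below is that of cells thinned to 1000 UMIs, averaged over all possible draws, a choice made after the data were seen. Acta2 was found in 17.2% and 17.5% of gated fibroblasts, in 3.67% and 3.77% of granulocyte-like cells (median depth before thinning 3148 and 2907 UMIs) and in 1.35% and 2.12% of B-like cells (3732 and 3417 UMIs). Il6 was in 40.9% and 44.98% of gated fibroblasts and in 0.996% and 1.62% of B-like cells, and Postn in 34.6% and 37.2% against 0.431% and 1.03%. The lowest fibroblast shares, those of Lif (7.38% and 5.56%), Thy1 (7.50% and 11.3%) and Fap (7.91% and 8.24%), were above the B-like shares of at most 0.522% for the same genes. For Fap, the granulocyte-like shares were 4.92% and 4.81%, nearer to the fibroblast shares than for Acta2.

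**Figure D2:**
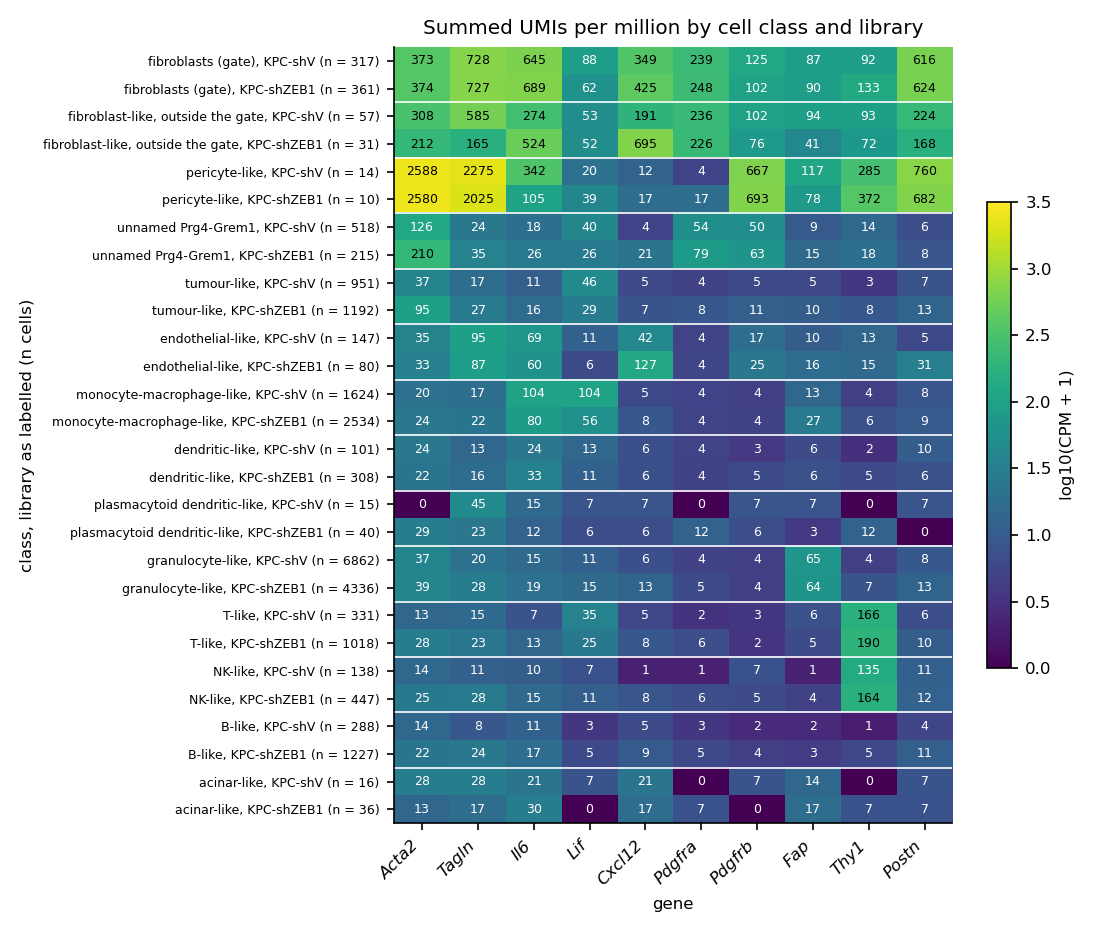
Level of each of the 10 genes in each cell class that held at least 10 cells in both libraries, with colour for log10(CPM + 1) of summed UMIs. Acta2, Tagln, Pdgfrb and Thy1 are highest in pericyte-like cells, Pdgfra is highest in gated fibroblasts, and Postn is high in both gated fibroblasts and pericyte-like cells.

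The contractile genes were found together in single fibroblasts. With each gated cell thinned to 1000 UMIs, 34 and 45 cells held both Acta2 and Tagln where 13.9 and 19.0 were expected from the separate shares, which is 2.45 (1.72–3.35) and 2.36 (1.75–3.09) times the expected number. Acta2 with Il6 was found 0.727 (0.410–1.18) and 0.636 (0.403–0.948) times the expected number, and Tagln with Cxcl12 0.660 (0.364–1.09) and 0.524 (0.281–0.884) times. Il6 with Cxcl12 was at 1.14 (0.812–1.55) and 1.24 (0.956–1.57). For Acta2 with Il6 and Tagln with Cxcl12 the interval included 1 in the library labelled KPC-shV. Another mixed pair, Acta2 with Cxcl12, was at 0.412 (0.152–0.886) and 0.887 (0.547–1.35), values that moved when all draws were averaged. Other pairs were also above 1 in the library labelled KPC-shZEB1. Pdgfrb with Fap was at 1.75 (0.758–3.40) and 2.73 (1.10–5.58), and Tagln with Thy1 at 1.03 (0.381–2.22) and 1.88 (1.14–2.89). These counts come from 1 draw, which held Acta2 in 55 of 317 and 79 of 361 cells, more in the second library than the 17.5% that all draws average to. Averaged over all draws, Acta2 with Tagln was at 2.47 and 2.65, Acta2 with Il6 at 0.680 and 0.654, Tagln with Cxcl12 at 0.779 and 0.443 and Il6 with Cxcl12 at 1.15 and 1.19.

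At this depth most molecules are lost, so cells with more UMIs were also thinned to 10000, a depth chosen after the data were seen, which left 296 and 340 cells. Acta2 was then detected in 48.0% and 49.4% of the cells, Tagln in 57.8% and 53.5%, Il6 in 81.1% and 86.8%, Lif in 34.8% and 27.9%, Cxcl12 in 58.4% and 64.7%, and Thy1 in 46.6% and 56.8%. Acta2 and Tagln were found together 1.35 (1.15–1.56) and 1.35 (1.15–1.55) times the expected number. The highest ratio of any other pair was 1.15 (Acta2 with Lif, library labelled KPC-shV, interval 0.894–1.45). The largest ratio a pair can reach falls as its more common gene is found in more cells. Il6, Pdgfra and Postn were found in 80.4% to 86.8% of the cells, so pairs with them had less room above 1 than Acta2 with Tagln. Tagln with Cxcl12 was at 0.901 (0.747–1.07) and 0.781 (0.647–0.927), while Acta2 with Cxcl12 was at 1.04 (0.854–1.23) and 0.883 (0.735–1.04). Among the 45 pairs, the interval left out 1 for Acta2 with Tagln in both libraries and for Tagln with Cxcl12 in the library labelled KPC-shZEB1.

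Detection of both kinds of gene was counted next. Counting Acta2 or Tagln as contractile and Il6, Lif or Cxcl12 as inflammatory, 184 of 296 cells (62.2%, 56.4–67.7) and 214 of 340 cells (62.9%, 57.6–68.1) held both kinds at 10000 UMIs. Inflammatory genes without a contractile gene were found in 30.4% and 31.8%, contractile genes alone in 6.08% and 4.41%, and neither in 1.35% and 0.882%. The median cell held 6 of the 10 genes, and 4 and 2 cells held all of them. A single UMI was enough for detection, and cells of other classes met the same count at this depth. Both kinds were found in 16.1% (14.0–18.4) of 1101 and 17.2% (15.5–19.1) of 1799 monocyte-macrophage-like cells, in 11.0% (8.59–13.8) of 581 and 15.3% (13.0–17.9) of 848 tumour-like cells, and in 4.26% (0.520–14.5) of 47 and 5.88% (2.19–12.4) of 102 T-like cells. Acta2 or Tagln was found in 21.3% and 31.4% of the T-like cells, and Il6, Lif or Cxcl12 in 29.8% and 20.6%. These shares hold both what those cells express and RNA from outside them, and no mixed state of a fibroblast is read from the count. The intervals of the 4 fibroblast shares overlapped between the libraries.

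**Figure D3:**
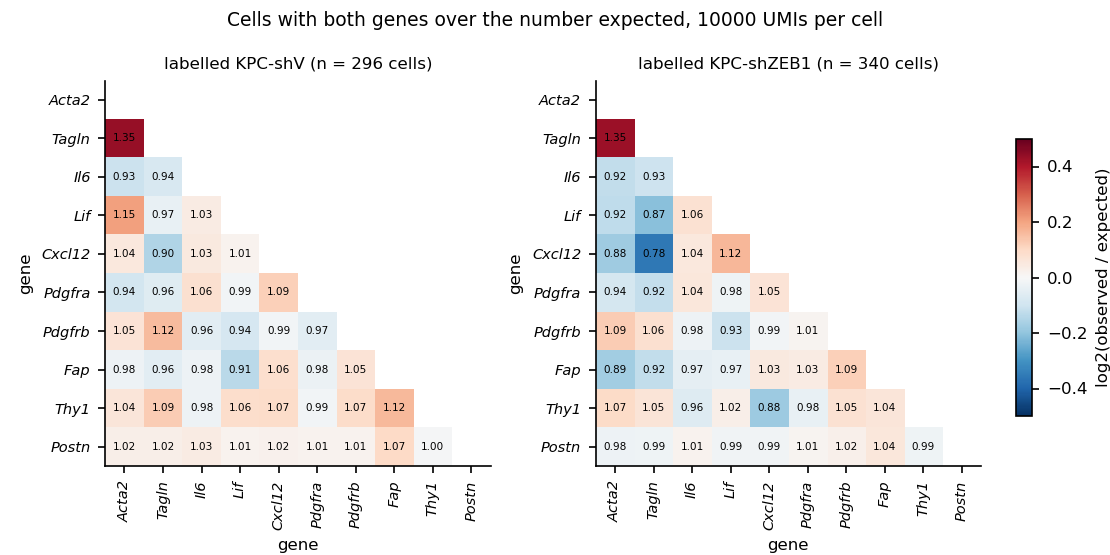
Observed over expected number of gated fibroblasts with both genes of a pair, each cell thinned to 10000 UMIs, for the library labelled KPC-shV and the library labelled KPC-shZEB1. Acta2 with Tagln is highest at 1.35 in both, and Tagln with Cxcl12 lies lowest in this draw at 0.901 and 0.781. Pairs with a gene found in most cells had less room above 1.

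Levels were then followed along the contractile signal. Gated cells of each library were ordered by their summed Acta2 and Tagln CPM and cut into 4 equal groups. From the lowest to the highest group Il6 went from 842 CPM (801–885) to 363 CPM (341–386) in the first library and from 924 CPM (885–965) to 333 CPM (312–354) in the second. Cxcl12 went from 509 to 232 CPM and from 634 to 133 CPM, and Pdgfra from 321 to 143 CPM and from 298 to 174 CPM. Il6 and Pdgfra were thus lowest in the most contractile cells of both tumours. Cxcl12 was lowest there in the second library. In the first library it was at 232 CPM both in the highest group (214–251) and in the group below it (213–252). Lif did not follow, with 60.9 to 121 CPM in the first library and 90.4 to 45.2 CPM in the second. Pdgfrb went from 108 to 143 CPM and from 78.0 to 134 CPM, and Postn from 567 to 770 CPM and from 662 to 698 CPM. Neither rose steadily in both libraries. In the first library Pdgfrb was highest in the group below the most contractile one (152 CPM). In the second library Postn was lowest in a middle group (491 CPM), and its end intervals overlapped (629–697 and 668–728). Thy1 took no steady course in the first library, with 96.2, 45.1, 127 and 97.7 CPM from the lowest to the highest group. In the second library Thy1 went from 93.0 to 177 CPM. The highest group itself held 1132 and 1123 CPM of Acta2 and 2198 and 2234 CPM of Tagln. From the lowest to the highest group the median depth went from 25678.5 to 36951 UMIs in the first library. In the second it went from 26269 to 33833.5 UMIs. The part of depth in these courses was not tested.

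Rank correlations across cells thinned to 10000 UMIs are given as descriptions of 296 and 340 cells that share their library. Acta2 and Tagln had a Spearman rho of 0.63 and 0.64. Tagln had −0.28 and −0.40 with Il6, −0.17 and −0.39 with Cxcl12 and −0.23 and −0.32 with Pdgfra, while Il6 with Cxcl12 had 0.20 and 0.29. Acta2 had −0.24 and −0.37 with Il6 and −0.24 and −0.17 with Pdgfra. With Cxcl12 it had 2.83e-05 in the library labelled KPC-shV, which is no relation, and −0.26 in the other. Il6 and Lif, both cytokines of 1 family, had 0.05 and 0.18.

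The genes most alike to each member across gated cells were sought among 12337 genes by the mean Pearson correlation of log-normalised values over both libraries. Acta2 was followed by Tagln (0.81), Tpm2 (0.72) and Myl9 (0.69), and Tagln by Acta2, Myl9 (0.70) and Tpm2 (0.67). Il6 was followed by Ptx3 (0.54), Ifi205 (0.46) and C4b (0.46), and Cxcl12 by Saa3 (0.57), Chl1 (0.57) and Hp (0.53). Thy1 was nearest to Sparcl1 (0.46), Gng11 (0.40) and Megf11 (0.40), Pdgfra to Svep1 (0.41), Igf1 (0.40) and Ddr2 (0.39), and Postn to the collagen genes Col5a2 (0.41), Col1a1 (0.31) and Col1a2 (0.31). Pdgfrb was nearest to Itgb5 (0.37), Spon1 (0.37) and Tgfb1 (0.36), and Fap to Cyp7b1 (0.32), Megf11 (0.29) and Kcnq3 (0.27). Lif had no close neighbour, with 0.21 for Cxcl1, Nfkb1 and C430002N11Rik. These are values over cells, which share depth and library.

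Clustering the gated cells without the members, the listed genes and the collagens gave 8 sub-clusters, described by their leading genes. The members differed widely between them. In the sub-cluster led by Cxcl14, Spp1 and Megf11 (47 and 54 cells) Acta2 was at 1036 and 1071 CPM and Tagln at 2199 and 2474 CPM, while Il6 was at 327 and 300 CPM. Thy1 (224 and 281 CPM), Pdgfrb (212 and 193 CPM) and Fap (168 and 168 CPM) were also above their level over all gated cells there. The opposite was found in the sub-cluster led by Cxcl13, Sned1 and Chl1 (45 and 89 cells), with Cxcl12 at 1202 and 993 CPM, Il6 at 1094 and 1039 CPM, Pdgfra at 419 and 327 CPM and Acta2 at 16.6 and 33.8 CPM. It made up 14.2% (10.5–18.5) and 24.7% (20.3–29.4) of the gated cells. Proliferating cells led by Top2a, Mki67 and Cenpf (31 and 28 cells) held Acta2 at 560 and 839 CPM, between these extremes. Since the cells were clustered on their own expression, differences between sub-clusters are descriptions.

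Other sub-clusters were unequal in size. The one led by Thsd4, Itgbl1 and Slpi had 60 and 14 cells (18.9% and 3.88%) and held Acta2 at 407 and 484 CPM and Il6 at 437 and 247 CPM. The one led by Cxcl5, Lcn2 and Il1rl1 had 2 and 26 cells, and in the 26 cells Il6 was at 974 CPM and Lif at 158 CPM, the highest Lif level of a sub-cluster in that library. With 1 tumour per group, a sub-cluster found mostly in 1 library may be that tumour or library.

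Within the 4 sub-clusters with at least 30 cells in each library, the Acta2 ratio ranged from 1.03 to 2.27 and the Tagln ratio from 1.13 to 2.37. The interval of Acta2 included 1 in the sub-cluster led by Cxcl14 (1.03, 0.969–1.10), which rested on 1787 and 1918 UMIs, and Tagln there was at 1.13 (1.08–1.18). The Tagln interval included 1 in the sub-cluster led by Cxcl13 (1.57, 0.927–2.79), which held 19 and 61 UMIs of the gene, and Acta2 there was at 2.04 (1.21–3.63). In the other 2 the Acta2 ratio was 1.45 (1.27–1.67) and 2.27 (1.81–2.87), and the Tagln ratio 1.30 (1.17–1.44) and 2.37 (1.96–2.89). When each sub-cluster was given the same weight in both libraries, a choice made after the data were seen, the ratios were 1.24 and 1.28. Thy1 was above 1 in all 4 (1.19 to 1.70) and Pdgfrb below 1 in all 4 (0.687 to 0.929). Cxcl12 was above 1 in 1 of 4 (0.270 to 1.31), so its ratio of 1.22 over all gated cells was not found within most sub-clusters. Il6 was likewise above 1 in 1 of 4 (0.765 to 1.09), against 1.07 over all gated cells. With sub-clusters weighted alike its ratio was 0.912. Lif (0.432 to 1.51) and Postn (0.757 to 1.71) took both directions.

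**Figure D4:**
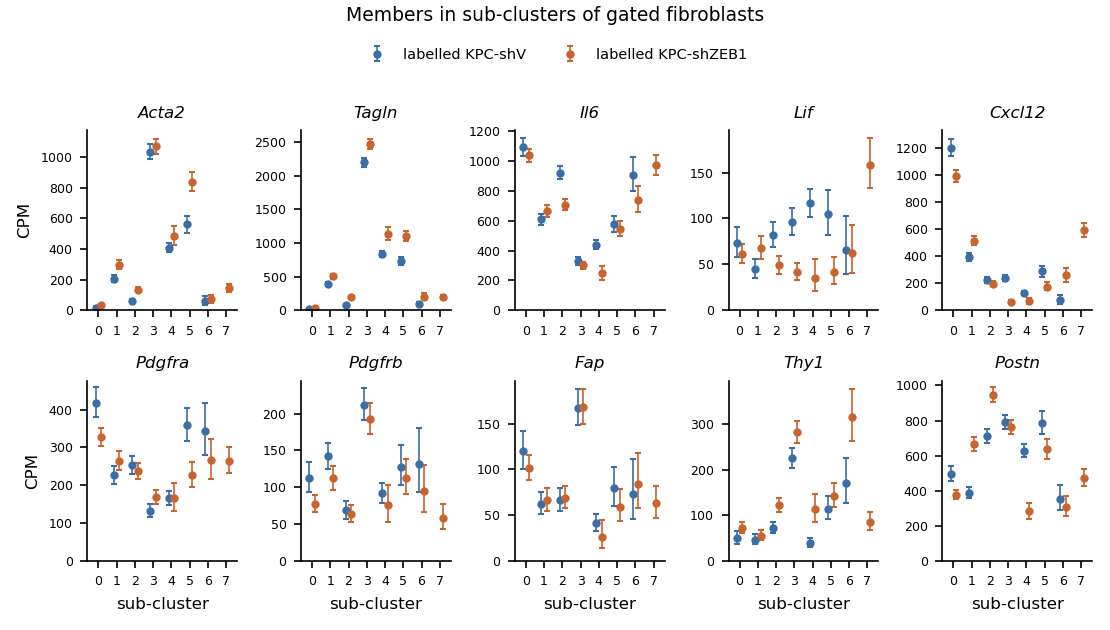
Level of each of the 10 genes in the 8 numbered sub-clusters of gated fibroblasts, as CPM of summed UMIs with 95% counting intervals, for each library where the sub-cluster held at least 10 cells. Acta2 and Tagln peak in sub-cluster 3 (led by Cxcl14 and Spp1), and Cxcl12 and Il6 in sub-cluster 0 (led by Cxcl13 and Sned1).

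The contractile values depended on the upper limit of 60000 UMIs per cell, which follows the study's methods. Beyond it lay 22 and 19 barcodes that met the collagen gate, with medians of 74118.5 and 70794 UMIs. The doublet score was computed only for barcodes of no more than 60000 UMIs, so these had none. Whether they were doublets was not tested. Their Acta2 level was 1454 and 2386 CPM, 3.90-fold (3.71–4.11) and 6.38-fold (6.09–6.68) that of the kept gated cells, and their Tagln level was 2462 and 3415 CPM, 3.38-fold (3.26–3.51) and 4.70-fold (4.53–4.87). Il6 was at 387 and 376 CPM and Cxcl12 at 117 and 95.7 CPM, below the kept cells. These few barcodes held 42.2% and 47.2% of all Acta2 UMIs in gated barcodes below and above the limit. Without the limit, Acta2 was at 543 and 621 CPM (ratio 1.14) and Tagln at 1001 and 1057 CPM (ratio 1.06).

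A summed Acta2 and Tagln level of at least 1000 CPM was reached by 74 of 317 (23.3%, 18.8–28.4) and 77 of 361 (21.3%, 17.2–25.9) kept cells, but by 16 of 22 (72.7%, 49.8–89.3) and 17 of 19 (89.5%, 66.9–98.7) barcodes beyond the limit. Depth went with the contractile genes also below it. From the shallowest to the deepest of 4 groups of kept gated cells, Acta2 went from 166 to 697 CPM and from 288 to 481 CPM, and Cxcl12 from 517 to 183 CPM and from 758 to 235 CPM. Marker sums used for other cells moved too. The 4 smooth muscle markers summed to 65.3 and 58.1 CPM in kept cells and 235 and 659 CPM beyond the limit. They include Actg2 and Cnn1 of the contractile and matrix list, so this sum does not separate smooth muscle cells from contractile fibroblasts. The 6 pericyte markers summed to 41.0 and 60.3 CPM and 85.7 and 72.0 CPM, and the 6 tumour-like markers to 306 and 371 CPM and 646 and 449 CPM. The part of depth and of RNA from these other cell types in the contractile levels was not tested.

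**Figure D5:**
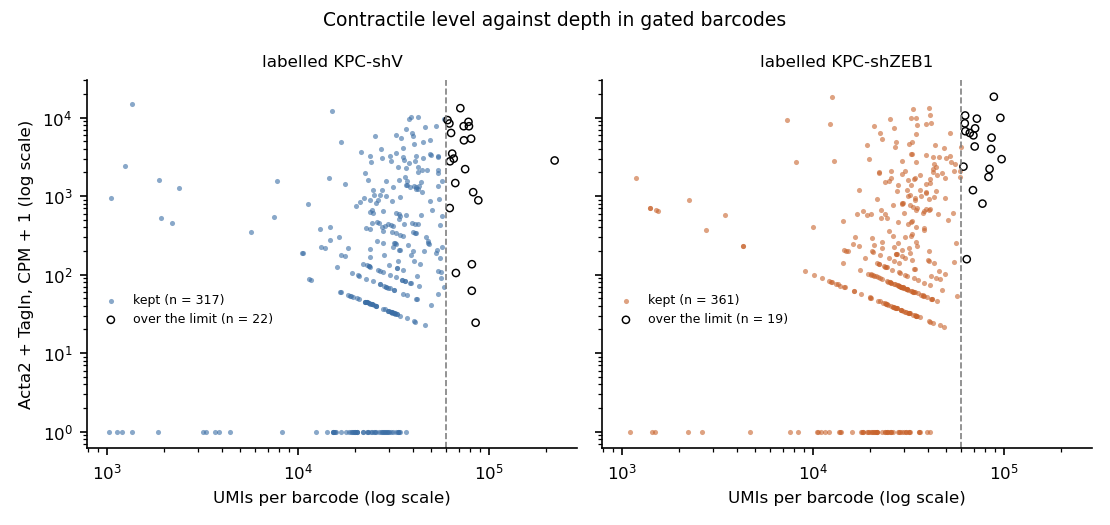
Summed Acta2 and Tagln level (CPM, log scale) against UMIs per barcode (log scale) for kept gated cells and gated barcodes above the limit of 60000 UMIs (dashed). Doublets by score were removed below the limit only, since barcodes above it had no score. To the right of the line 16 of 22 and 17 of 19 barcodes reach 1000 CPM, against 74 of 317 and 77 of 361 to its left.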

How the data were processed

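Single-cell RNA was measured in 1 tumour from KPC-shV cells and 1 from KPC-shZEB1 cells. The authors deposited raw UMI counts for each gene in each barcode, with Cell Ranger 7.0.1 and mm10 named in the submitters' processing notes. Whether intron reads were counted is not given in the sources used here. The cell limits were those of the study's methods, namely a minimum of 500 genes, between 1000 and 60000 UMIs, and a mitochondrial share of no more than 15%. Cells with a Scrublet doublet score above 0.2 were removed (319 and 334 cells), where the study used DoubletFinder. The libraries held 12594 and 13271 barcodes with 130941086 and 143461224 UMIs.

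Cells were clustered with scanpy 1.11.5 and leidenalg 0.10.2 on 30 components of 3000 variable genes without the members, listed genes or gate collagens, at a resolution of 1.5 chosen after the cluster names had been seen. The libraries were not aligned, where the study used Harmony. A cluster took a name, as X-like, only with at least 3 detected markers. Gated cells were clustered again on 15 components of 2000 genes at a resolution of 0.6. UMIs were summed per class and library and given per 1000000. Intervals are exact (Poisson for levels, Clopper-Pearson for shares, conditional on the summed count for ratios) and cover counting error only. Cells were thinned to 1000, 2000 or 10000 UMIs in 1 draw without replacement, and means over all possible draws were computed exactly. The steps were tested on simulated data. Genes past 1.5-fold needed at least 30 summed UMIs. The text names the members, the listed genes, Zeb1, the 3 genes most alike to each member and the genes that lead a sub-cluster. The members and lists were chosen with earlier results of these data known. Alternatives changed the cell filters, the doublet step, the gate, the weighting of cells, the scaling, the depth and the count minimum.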

Additional observations from a re-analysis of the deposited data

Results flagged for a closer look

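Some members differed between the libraries in opposite directions in different cell classes, and these differences between classes were not tested. Il6 had a ratio of 1.07 in gated fibroblasts but of 0.767 in monocyte-macrophage-like cells (104 and 79.6 CPM) and of 0.309 in pericyte-like cells (85 and 19 UMIs in 14 and 10 cells). Lif had a ratio of 0.705 in gated fibroblasts and of 1.39 in granulocyte-like cells, where it was at 10.9 and 15.1 CPM. Pdgfrb had a ratio of 0.815 in gated fibroblasts, of 2.13 in tumour-like cells (4.98 and 10.6 CPM) and of 1.26 in the unnamed cluster led by Prg4 and Grem1 (50.4 and 63.5 CPM).

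Barcodes that the filters left out also met the collagen gate, numbering 50 for the library labelled KPC-shV and 42 for the other library. Of these, 22 and 19 exceeded the upper UMI limit, 11 and 9 were removed by their doublet score and 17 and 14 failed another filter. Over all of them Acta2 was at 1322 and 2034 CPM and Tagln at 2229 and 2916 CPM. Among the 11 and 9 barcodes removed by score, Acta2 was at 187 and 312 CPM, below the kept gated cells.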

How the results depend on the processing

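No member was past 1.5-fold in either direction, and some alternatives moved 1 member across. Members past the lower limit numbered 1 with the gate at 2% (Lif, 0.636), without the gated cells outside the fibroblast-like cluster and the sub-cluster led by Cxcl5 (Lif, 0.622), after subtraction of the granulocyte-like level (Lif, 0.608), with cells thinned to 1000 UMIs (Pdgfrb, 0.598) and with sub-clusters weighted alike (Lif, 0.589). Members past the upper limit numbered 1 for the mean over cells (Thy1, 1.56) and without the 5 top cells of each gene (Thy1, 1.599). Over 15 alternatives Thy1 stayed above 1 (1.32 to 1.599) and Lif (0.589 to 0.815) and Pdgfrb (0.598 to 0.860) stayed below 1. Among the 15, the lower count minimum could not change the ratio of a member. Division by the median ratio of all genes (0.991) only rescaled every ratio alike. Il6 (0.912 to 1.13) and Cxcl12 (0.878 to 1.34) did not keep their direction, and each was above 1 in 13 of the 15. Acta2 ranged from 0.777 with the gate at 2% to 1.24, and Tagln from 0.743 to 1.28. Weighting sub-clusters alike, leaving out the cells outside the cluster, thinning to 10000 UMIs, averaging over draws and dropping the upper UMI limit were chosen after seeing the data. The gated share was 3.34% and 3.33% with the gate at 0.5%, 1.97% and 2.16% at 2%, and 0.0527% and 0.0248% when cells with an epithelial or leukocyte marker UMI were left out. That last choice left 6 and 3 cells, too few for ratios or co-detection, which were not run. Co-detection of Acta2 with Tagln was 1.18 and 1.13 unthinned and 1.35 and 1.35 at 10000 UMIs, and Acta2 with Il6 was 0.984 unthinned in the library labelled KPC-shZEB1. Of 630 co-detection values under 7 settings, 573 stayed inside the interval of the reported value. With numbers averaged over all draws to 1000 UMIs, Acta2 with Cxcl12 was at 0.922 and 0.539, against 0.412 and 0.887 in the 1 draw. For these shifts the cause was not tested. No paired analysis was possible because each group has 1 library.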

Other observations

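Fibroblasts expressed receptors for ligands that other classes carried. Osmr, the oncostatin M receptor, was at 362 and 343 CPM in gated fibroblasts (ratio 0.948, 0.904–0.994), while its ligand gene Osm was at 668 and 428 CPM in granulocyte-like cells and at 547 and 352 CPM in monocyte-macrophage-like cells. Il1r1, the IL-1 receptor, was at 312 and 294 CPM in gated fibroblasts (ratio 0.943, 0.896–0.992), and Il1b was at 16832 and 17115 CPM in granulocyte-like cells and at 4741 and 4245 CPM in monocyte-macrophage-like cells. Tgfbr2 was at 382 and 359 CPM in gated fibroblasts (ratio 0.940, 0.897–0.984).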
